A study of Mus musculus with 2 samples.

Results

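The H19, Igf2 and Ins2 locus is an imprinted stretch of mouse chromosome 7, and it was examined here for binding of CTCF, the zinc finger protein that insulates enhancers from promoters and anchors chromatin loops. Peaks were taken as members when their summit lay between 150 kb before and 150 kb after the span of the 3 genes in GENCODE M21, a choice of position only, made on the mm10 build. The window runs from chr7:142425529 to 142893381, 467.853 kb in all. It holds 32 of the 44533 peaks of the optimal list and 30 of the 43221 of the conservative list. The authors derived both from the libraries by IDR, a measure of how far ranks recur. The conservative list is shorter but not nested in the optimal one, since its lowest signal is 5.334 against 5.504. The window also holds 98 of the 300000 peaks of the pooled relaxed list, which is long enough to include background. The 30 conservative peaks all match optimal ones.

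The chromatin came from heart tissue of newborn mice of strain B6NCrl at postnatal day 0. An antibody to CTCF was used for 2 libraries that form 1 group, with no other genotype, treatment or time. The labels number the libraries as biological replicates 1 and 2, yet give both the same tissue sample and donor identifier. The spread between replicate 1 and replicate 2 may therefore be technical. Sex was not collected. The values are the authors' signal per peak. Read depth is unknown from these lists, and reads of the maternal and paternal chromosomes are not separated. A site occupied on 1 of the parental chromosomes in every cell and a site occupied on both in fewer cells cannot be told apart, and neither can the cell types of the heart.

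At this locus H19, a long noncoding RNA, is expressed from the maternal chromosome, while Igf2, which encodes the growth factor IGF-II, is expressed from the paternal one. A control region just upstream of H19 is methylated on the paternal chromosome. CTCF is known to bind the unmethylated maternal copy and to keep enhancers beyond H19 from reaching Igf2. Ins2 encodes insulin and is imprinted in some extraembryonic tissue. All 3 genes lie on the minus strand in the order H19, Igf2, Ins2, so that higher coordinates are upstream of each.

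The sequence that the control region is known for is the 14-base motif CCGCNNGGNGGCAG, searched on both strands with no mismatch. It occurs 4 times in the window, and all 4 copies lie in the control region, taken as the 5 kb upstream of the 5′ end of H19, all on the minus strand like H19 itself. They are shown because 3 of them carry the peaks of the control region and the remaining one, farthest from H19, does not. Each is printed 5′ to 3′ on the minus strand of mm10 with 20 bases on either side, and the capitals mark the motif.
chr7:142580289-142580342: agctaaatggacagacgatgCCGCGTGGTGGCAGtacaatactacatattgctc
chr7:142580744-142580797: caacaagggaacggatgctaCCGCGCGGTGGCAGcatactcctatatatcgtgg
chr7:142581770-142581823: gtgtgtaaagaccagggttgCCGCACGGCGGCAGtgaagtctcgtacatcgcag
chr7:142582014-142582067: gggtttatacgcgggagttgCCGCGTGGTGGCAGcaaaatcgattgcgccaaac
The capitals at the first and at the last copy are the same 14 bases. The copies begin 2166, 2621, 3647 and 3891 bp upstream of H19, and they hold 2, 3, 3 and 2 CpG dinucleotides, the positions at which mammalian DNA is methylated.

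CTCF formed 4 optimal peaks in the control region, all of them also in the conservative list, within a stretch in which the nearest other optimal peaks lie 26.59 kb and 28.98 kb away. The peak nearest to H19 has its summit at chr7:142579265, 1122 bp upstream, with a pooled signal of 25.24, and the replicates gave 12.73 and 9.692. The next lies 2182 bp upstream, where the pooled signal was 75.35 and the replicates gave 34.22 and 41.77. The strongest lies 2632 bp upstream, where the pooled signal was 87.93 and the replicates gave 48.05 and 40.16. These first 3 summits therefore rise in signal with distance from H19, in the pooled list and in replicate 1, whereas replicate 2 had nearly equal values at the latter pair. The summit farthest from H19 lies 3637 bp upstream with a pooled signal of 52.16, and the replicates gave 21.50 and 31.23. Summed over the 4 peaks, the signal was 116.5 in replicate 1 and 122.9 in replicate 2.

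The 3 stronger peaks sit on the motif. Their summits lie 9, 4 and 17 bp from the centre of the copy under each, while the weakest peak, nearest to H19, has no exact copy and instead has a general CTCF core with 2 mismatches. The farthest copy of the motif lies 261 bp from the nearest optimal summit and outside every pooled relaxed peak. Replicate 1 alone had a relaxed peak there, with its summit inside the copy, 3 bp from its centre, and a signal of 6.949. The nearest relaxed summit of replicate 2 was 248 bp from the centre. The capitals of this copy equal those of the first one, whose peak had signals of 34.22 and 41.77, so these 14 letters went with different signals at the 2 places. The plot of relaxed peaks upstream of H19 also shows weaker peaks without a motif copy: the pooled list has one 459 bp upstream with a signal of 5.973, found in replicate 2 only, and one 4303 bp upstream with a signal of 8.967, at 4.698 in replicate 1 and 3.78 in replicate 2.

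**Figure D1:**
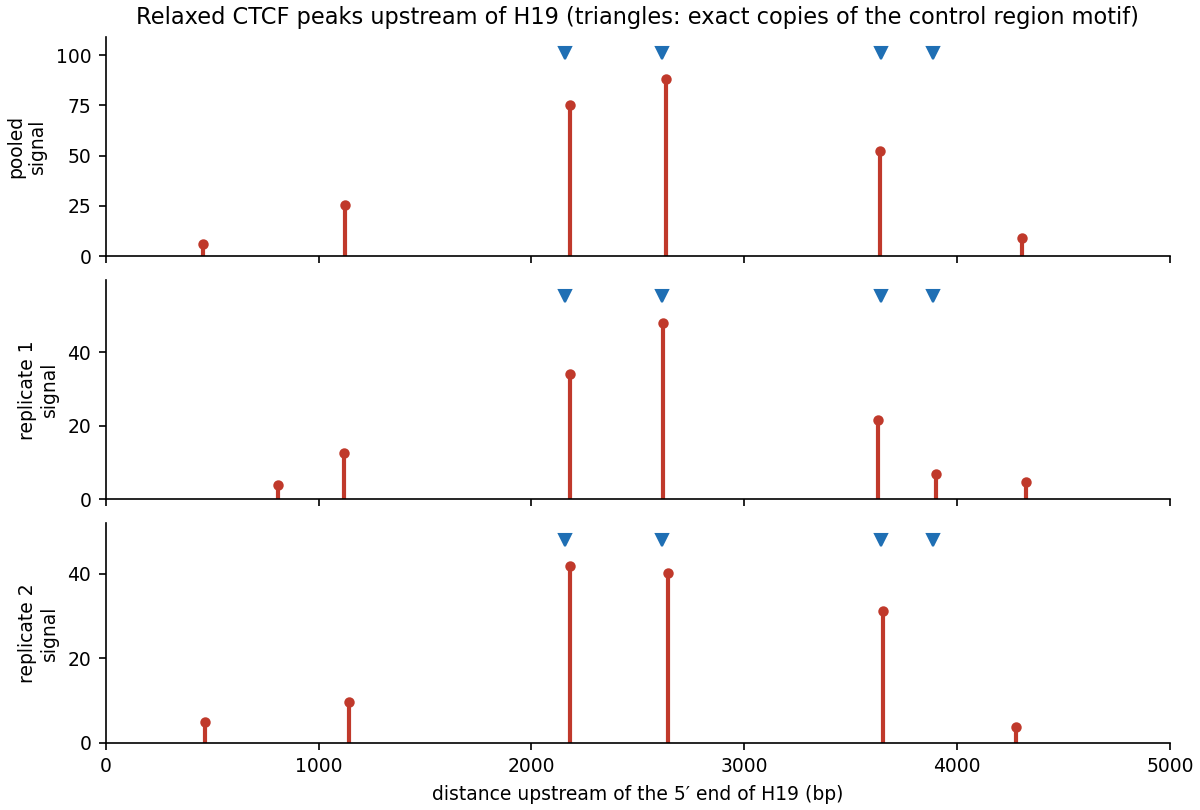
Relaxed CTCF peaks within 5 kb upstream of H19. The x axis is the distance upstream of the 5′ end of H19 in bp, the y axes give the authors' signal in the pooled list and in each replicate, stems are single peaks and triangles mark the 4 exact copies of the motif. The 3 tallest stems stand at the first 3 triangles in each list, and the last triangle has a stem in replicate 1 only, at 6.949.

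Across the genome the same motif occurs 561 times, with 55 copies on chromosome 7. An optimal summit lies within 50 bp of 111 of these copies, which is 19.8%. Of all optimal peaks, 109 have an exact copy within 50 bp, a share of 0.245%, while 3 of the 32 locus peaks have one. The bound copies of the control region stand close together: it holds 3 with an optimal summit within 5 kb, and elsewhere the most in such a length is 2, reached in 1 stretch. Copies without regard to binding are not as sparse, since up to 5 occur within 5 kb elsewhere. No test was made of this difference, since the motif was taken from what is known of this control region.

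The motif-bearing peaks of the control region were on the weaker side for such sites. The 106 optimal peaks elsewhere with an exact copy had a median pooled signal of 143, with quartiles of 72.5 and 189.9 and a range of 16.84 to 351.4. Of these 106 peaks, 29 were weaker than the control region peak at 75.35, 32 were weaker than that at 87.93 and 15 were weaker than that at 52.16. All 3 values thus fall below the median of the 106, and 1 falls below their lower quartile. Against all optimal peaks, whose median signal is 60.83, the 3 rank higher: 56.6%, 61.6% and 45.4% of the list is weaker. The share of each signal that comes from 1 parental chromosome was not measured.

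**Figure D2:**
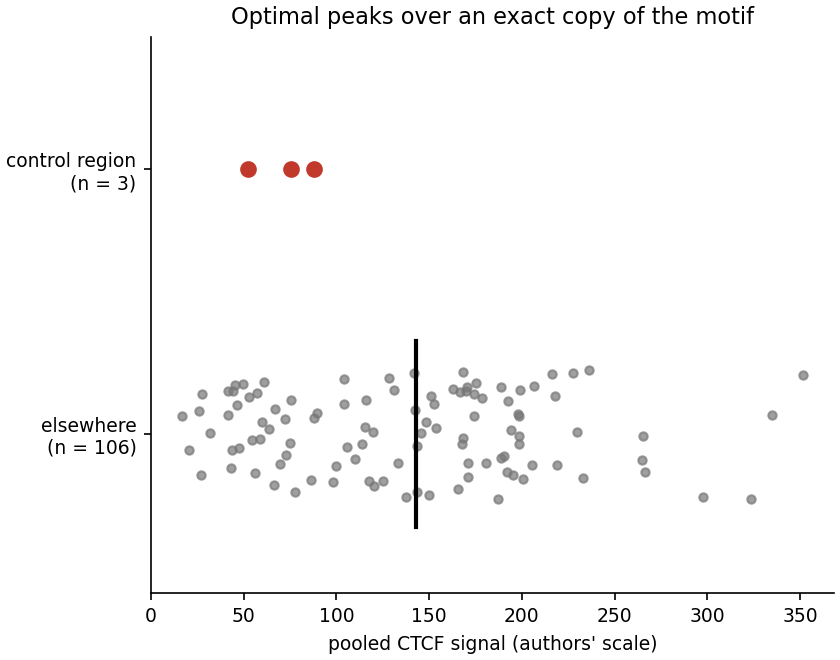
Pooled signal of optimal peaks with an exact copy of the control region motif within 50 bp of the summit. The x axis is the authors' signal, points are single peaks, the vertical spread is arbitrary and the bar marks the median of the 106 peaks elsewhere, 143. The 3 control region peaks, at 52.16, 75.35 and 87.93, all lie left of that bar.

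The 3 motif-bearing summits lie in sequence with more CpG dinucleotides than at the median CTCF peak, in part through the motif itself. Within 50 bp on either side they have 7, 5 and 6 CpG dinucleotides in order of distance from H19. The median of all optimal peaks is 1 and that of the locus peaks outside the control region is 2. The 106 peaks elsewhere with the same motif have a median of 4, and 78, 56 and 65 of them have fewer CpG dinucleotides than the respective control region peak. The 3 peaks also match the general CTCF sequence poorly: on a weight matrix, 18.7%, 14.4% and 8.72% of all optimal peaks score lower. That matrix was learned from optimal peaks of the other chromosomes with a general core of at most 2 mismatches. The best general cores of these 3 have 3, 3 and 4 mismatches, so low scores are partly built in. The peak nearest to H19 has 2 CpG dinucleotides and a middling matrix score, which 37.7% of optimal peaks fall below.

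Seen as a whole, the window is dense in CTCF peaks. It has 6.84 optimal peaks per 100 kb, against 1.96 on the rest of chromosome 7, a ratio of 3.49. Of 5815 stretches of the same length along the genome, 56 hold as many as 32 peaks, which is 0.963%, and on chromosome 7 it is 9 of 310. The locus was chosen with earlier results of these data known, so these shares are a description and not a test. Pooled signals of the 32 peaks run from 10.85 to 181.7, with a median of 99.51 against 60.83 in the whole list. The density is not spread evenly. The border beyond H19 has 16 peaks in 150 kb, the H19 gene body has 0, and the control region has 4 in its 5 kb. The interval from there to 10 kb short of Igf2 has 1 in 57.622 kb, the Igf2 side has 9 in 112.616 kb, and the border beyond Ins2 has 2 in 140 kb. In GENCODE M21 the Ins2 record extends to 142743381 through 1 long transcript, although the 5′ end of Ins2-201, the insulin transcript proper, is at 142679726. With that end in its place, the Igf2 side has 4 peaks and the outer borders have 22.

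**Figure D3:**
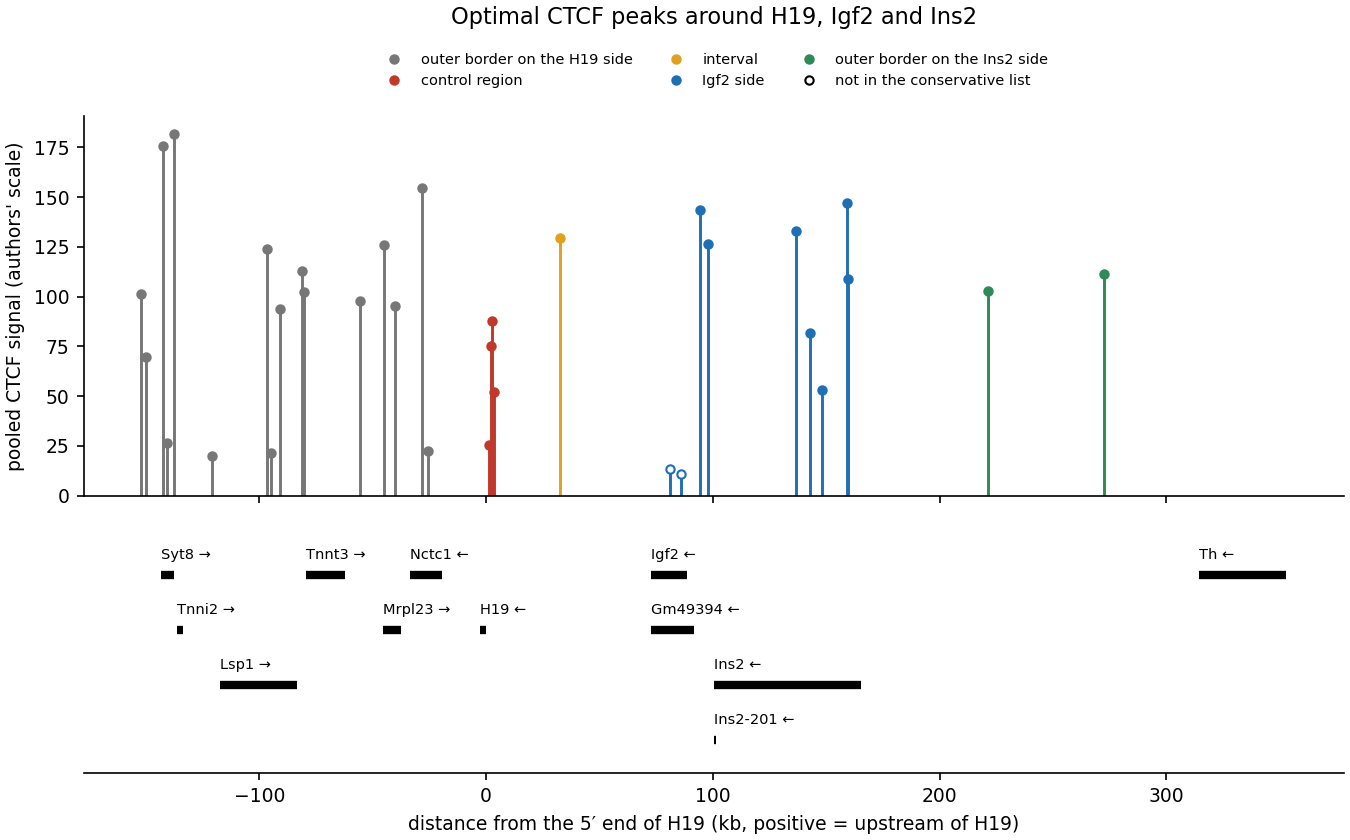
The 32 optimal peaks by distance from the 5′ end of H19 in kb on the x axis, with the authors' pooled signal on the y axis and, below, the protein-coding genes with H19 and Nctc1, whose arrows give the strand. The tallest stem, at 181.7, stands near Tnni2, the 4 control region peaks stand together just right of 0, and the open circles are the 2 weak peaks inside Igf2.

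Inside Igf2 itself CTCF signal was weak. The peak at chr7:142659360, in an Igf2 exon and 129 bp inside the 5′ end of transcript Igf2-205, had a pooled signal of 13.55, with 5.478 in replicate 1 and 5.680 in replicate 2. The peak at chr7:142664263, in an Igf2 intron, had 10.85, with 6.07 in replicate 1 and no peak in replicate 2. These are the 2 optimal peaks of the window missing from the conservative list, and only 3.11% and 0.725% of optimal peaks are weaker. Both stand in CpG-rich sequence, with 17 and 12 CpG dinucleotides within 50 bp of the summit. The overlapping records Gm49394, which is protein-coding, and Igf2os, an antisense transcript whose 5′ end is 333 bp from the first of these summits, cannot be told apart from Igf2 by position.

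Upstream of Igf2 the signal was much higher. The peak at chr7:142672331, 5.51 kb upstream of the 5′ end of Igf2 and 2389 bp upstream of that of Gm49394, had a pooled signal of 143.3, with 73.34 and 67.35 in the replicates. The peak at chr7:142675864 had 126.3, with 68.69 and 55.81, and stands 3862 bp from the 5′ end of Ins2-201, on its downstream side. Both replicates therefore place strong peaks between Igf2 and Ins2, each higher than any peak of the control region. Both have a CTCF core on the minus strand. Between the control region and Igf2 stands a single peak, at chr7:142610756 in an intron of the noncoding Gm33148, with a pooled signal of 129.5 and 75.15 and 53.80 in the replicates.

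Upstream of the peak at 142675864, across a gap of 39.01 kb, every further optimal peak of the window belongs to a set of 7 that share their sequence. This was noticed after the data were seen, and the set was formed by joining peaks at least 60% identical over 40 bases aligned on the core, so the identities below describe it and their separation from other pairs is largely fixed by that rule. The set spans 136 kb, from chr7:142714872 to 142850873, over the long Ins2 record and the border beyond it. Over those 40 bases, pairs within the set are 65% to 97.5% identical with a median of 80%, while the 475 other pairs of locus peaks are 20% to 62.5% identical with a median of 37.5%. The same rule also joined the peaks at 142481376 and 142552672, on the H19 side, at 62.5%. That pair is counted here among the others. The likeness is weaker over 150 bases on either side of the core's centre, aligned with gaps, with a median of 57.9% within the set and 45.7% for other pairs. Shown for the likeness between them are 6 of the 7, each on the strand of its core, with the 14-base core in capitals.
chr7:142720915-142720954, plus strand: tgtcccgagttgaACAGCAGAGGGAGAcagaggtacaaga
chr7:142726194-142726233, plus strand: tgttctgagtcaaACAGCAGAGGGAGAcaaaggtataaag
chr7:142737113-142737152, plus strand: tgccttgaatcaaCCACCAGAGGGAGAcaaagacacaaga
chr7:142737943-142737982, minus strand: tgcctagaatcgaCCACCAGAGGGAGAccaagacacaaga
chr7:142799619-142799658, plus strand: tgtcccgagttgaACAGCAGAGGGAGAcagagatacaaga
chr7:142850844-142850883, minus strand: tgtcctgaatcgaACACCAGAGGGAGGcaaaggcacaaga
The first and the fifth of these, which lie on either side of a 61.67 kb gap between neighbouring peaks, are the pair at 97.5%.

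All 7 peaks of the set are in the conservative list, and their pooled signals run from 53.17 to 147.0 with a median of 108.9. The closest pair includes the strongest of them. The summits at 142737140 and 142737969 are 829 bp apart, with pooled signals of 147.0 and 108.9, and their cores are on the plus and on the minus strand. The weakest, at 142726195, had 33.65 in replicate 1 and 20.55 in replicate 2. The summit at 142714872, whose sequence is not printed, had 71.36 and 61.94, and that at 142720915 had 41.60 and 38.88. Beyond Ins2, the summits at 142799638 and 142850873 had 54.49 and 48.72, and 61.92 and 49.78, and the latter lies in the noncoding records Gm6471 and Gm39117. Signal in replicate 2 was the lower at 7 of the 7, as it was at 74.3% of optimal peaks in both replicates.

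A search for stretches at least 75% identical to any of these 40-base sequences found 7 in the window, which are the 7 themselves. None lies between H19 and Igf2 or on the H19 side. On the rest of chromosome 7 it found 12, the nearest 101000 kb away, and 1 of these has an optimal summit within 50 bp. The members were found through their peaks, so the share bound in the window is set by the choice. By the core alone, ACAGCAGAGGGAGA is under 4 of the 7 peaks and occurs 156 times in the genome, 24 times with an optimal summit. CCACCAGAGGGAGA is under 2 and occurs 48 times, 25 times with an optimal summit. The summit base is soft-masked as a repeat at 1 of the 7 and at 0 of the other 25 locus peaks, beside 14.9% of all optimal peaks. The core is masked in full at 2 of the 7 and in part at 1, and at none of the other 25. More than 5% of the bases within 50 bp of the summit is masked at 5 of the 7 and at 1 of the other 25.

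**Figure D4:**
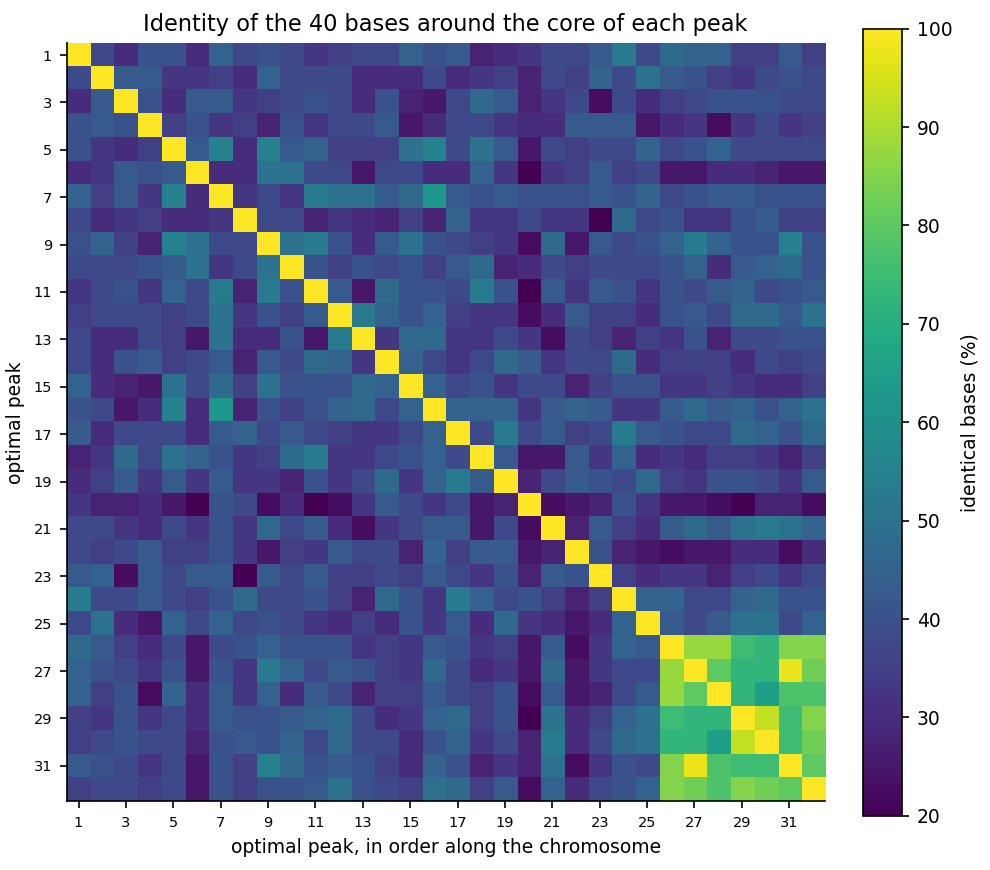
Identity between the 40 bases around the best core of each optimal peak in the window. Both axes give the 32 peaks in order along the chromosome, and the colour gives the percentage of identical bases. The bright block at the lower right is the set of 7, whose pairs share 65% to 97.5%.

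Beyond H19, in the direction of the enhancers described for this locus, 16 peaks stand among genes of skeletal muscle and other roles. The strongest of the window, at chr7:142440731, lies 1077 bp upstream of Tnni2, a fast skeletal muscle troponin I, with a pooled signal of 181.7 and 99.39 and 83.48 in the replicates. The next strongest, at chr7:142435754, lies in an intron of Syt8, a synaptotagmin, 904 bp from its 5′ end, with 175.8 pooled and 100.6 and 74.07 in the replicates. A weak summit in the same gene, at 142437594, had 26.42, with 8.812 and 16.36, and this was the peak at which replicate 2 exceeded replicate 1 the most, by 0.89 on the log2 scale. The 2 peaks farthest out, at 142426053 and 142428390, are intergenic with 101.4 and 69.58.

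Lsp1, an actin-binding protein of lymphocytes, holds 3 peaks. They had pooled signals of 124.1 at 142481376, 21.64 at 142483204 and 93.81 at 142487458. A weak intergenic peak at 142457400, 3409 bp upstream of Lsp1, had 19.69. Prr33 holds 113.0 at 142497070 and 102.4 at 142497997, and the latter is 839 bp upstream of Tnnt3, a fast skeletal muscle troponin T, whose own body has 0 optimal peaks. An intergenic peak at 142522566 had 97.60.

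Nearer to H19, Mrpl23, a protein of the mitochondrial ribosome, holds 125.9 at 142533114, in an exon 428 bp inside its 5′ end, and 95.52 at 142538105. The first of these has 12 CpG dinucleotides and a best core of 4 mismatches. The second is the one peak of the window with a stretch that differs from the control region motif at a single position. The noncoding Nctc1 holds 154.6 at 142550106, where the replicates gave 82.80 and 80.40, and 22.33 at 142552672, where they gave 15.06 and 8.22. That last peak had the largest excess of replicate 1, with a log2 ratio of -0.87. The only other protein-coding gene that reaches into the window is Th, which encodes the rate-limiting enzyme of dopamine synthesis. Its 5′ end lies beyond the window, and the nearest optimal peak inside the window is 80.3 kb from it. A closer peak beyond the window was not looked for.

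The 2 replicates ranked the locus peaks in much the same order, with a Spearman correlation of 0.941 across the 31 peaks found in both. It is a description across peaks of the same 2 libraries, and over all optimal peaks it is 0.947. The median log2 ratio of replicate 2 to replicate 1 was -0.20, with a range from -0.87 to 0.89, and replicate 2 was the lower at 26 of 31. Over all optimal peaks found in both the median was -0.22, close to that of the locus. At 2 of the 3 motif-bearing peaks of the control region replicate 2 was instead the higher, by 0.29 and 0.54 on the log2 scale, and at the third it was the lower, with -0.26. These 2 libraries give no error for a single peak beyond that pair of values.

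**Figure D5:**
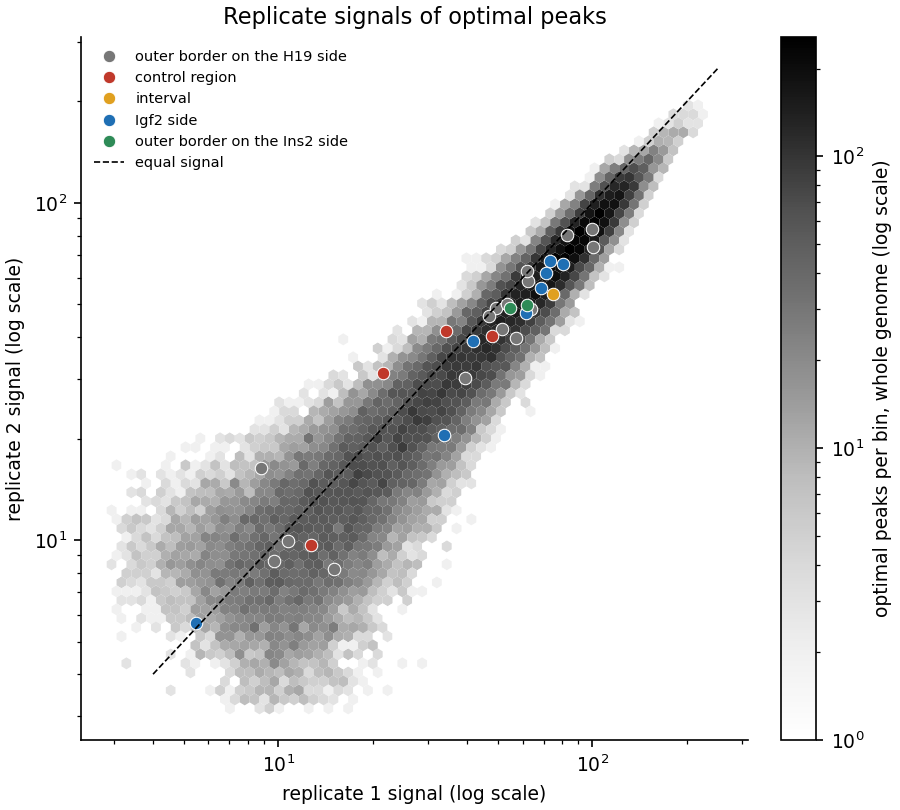
Replicate signals of optimal peaks. Both axes give the authors' signal on a log scale, grey hexagons count all optimal peaks found in both replicates, coloured points are the 31 locus peaks found in both and the dashed line is equal signal. Most points lie below the line, and 2 of the 4 control region peaks lie above it.

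By recurrence, 31 of the 32 optimal peaks have a relaxed summit in both replicates, beside 97.1% of all optimal peaks, and 30 of 32 are in the conservative list, beside 89.4%. Of the 98 pooled relaxed peaks, 32 match an optimal summit within 100 bp, which is 32.7% (exact 95% binomial interval 23.5 to 42.9, counting error only), beside 14.8% of the whole relaxed list. The 66 that match none are weak, from 5.30 to 14.2. Only 5 of them have a summit in both replicates, while 49 have one in a single replicate and 12 in neither. The strongest of them stands at 142458909 on the H19 side, with 14.15 pooled and 5.666 and 7.128 in the replicates, followed by one at 142457116 with 10.45. On the Igf2 side the strongest pair had 8.638 at 142659874, inside Igf2, and 8.059 at 142747222, both without a peak in replicate 2. In the interval they had 6.391 at 142583238 and 6.043 at 142590581, and in the border beyond Ins2 5.978 at 142891269 and 5.873 at 142859822. The H19 gene body has no pooled relaxed peak.

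A general CTCF core, the 14-base consensus of the factor with at most 2 mismatches within 50 bp of the summit, was present at 17 of the 32 peaks. That is 53.1% (exact 95% binomial interval 34.7 to 70.9, counting error only), beside 73.5% of all optimal peaks. The peaks are not independent, since 7 share their sequence, so the interval tests no difference from 73.5%. The gap also depends on the limit. At most 1 mismatch gave 18.8% beside 42.4% of all optimal peaks, and at most 3 gave 90.6% beside 91.3%. The weight matrix, which reads 20 bases and whose threshold also passes 73.5% of all optimal peaks, passed 22 of the 32, which is 68.8%. Those it added include 4 of the set of 7 upstream of Igf2, whose cores have 3 mismatches. Of the 17 cores, 7 are on the plus strand, beside 49.8% of those on chromosome 7. Among the 16 pairs of neighbours within these 17 cores, 4 point towards each other, 4 point away and 8 point the same way. No share over all optimal peaks stands beside these counts, so they only describe the window and mark no trait of it. These pairs pass over every peak without such a core, among them the 3 motif-bearing peaks of the control region and 4 of the set of 7.

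Windows made in the same way around other imprinted genes had lower ratios of density to the rest of their chromosome. The Kcnq1 domain, the neighbouring imprinted cluster, had 26 optimal peaks and a ratio of 1.9. The Dlk1 and Meg3 window had 8 and a ratio of 1.31, and that of Igf2r and Airn had 17 and 1.8. None of the 3 windows has an optimal peak over an exact copy of the control region motif. Only 0.245% of all optimal peaks have one, so none is the usual outcome for windows with so few peaks. The motif was also taken from what is known of the H19 control region. The most optimal peaks within 5 kb were 3, 2 and 2 there, against 4 at H19. These are descriptions of single windows, with no test.

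The IGF axis was read from a list of 24 genes for ligands, receptors, binding proteins and modifiers of IGF and insulin signalling, Igf2 and Ins2 included. An optimal peak lay within 10 kb of the 5′ end of 18 of them, which is 75% (exact 95% binomial interval 53.3 to 90.2, counting error only), beside 50.8% of 21755 protein-coding genes. Without Igf2 and Ins2 it was 16 of 22, which is 72.7% (interval 49.8 to 89.3). The list was chosen with earlier results of these data known, so neither interval tests a difference from 50.8%. The strongest were at Igfbp5, an IGF binding protein, with 228.3 pooled and 116.0 and 111.1 in the replicates, and at Igf1r, the receptor through which IGF-II signals, with 218.7 and 119.8 and 96.42. Cdkn1c, an imprinted inhibitor of the cell cycle, had 206.6, and the binding protein genes Igfbp3 and Igfbp4 had 184.4 and 178.1. Igf2 and Ins2 stand below these, at 143.3 and 147.0. The value for Ins2 is that of the summit at 142737140, measured from the 5′ end of the long transcript at 142743381. Within 10 kb of the 5′ end of the insulin transcript proper, at 142679726, the strongest optimal peak is the one given for Igf2, at 143.3. Igf2r, which clears IGF-II, was the weakest of those with a peak, at 17.40. The 6 genes without one were Igf2bp1, Igf2bp2, Igfals, Igfbp2, Ins1 and Plagl1.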

How the data were processed

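CTCF ChIP-seq lists of 2 libraries in 1 group were used. Per the text files deposited beside them, the authors called relaxed lists on each replicate and on both pooled, against a control alignment not used here, on mm10, and derived the optimal and conservative lists from these by IDR. The peak caller and the aligner were not named in those files or in the labels. The deposited signal per peak is the authors' own value, with no stated scaling, and serves only to rank and describe peaks. A pooled signal is close to both replicate signals added together. The deposited score columns were not used for any result. The members and gene lists were chosen with earlier results of these data known.

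Summits are the peak start plus the authors' offset, written 1-based. Summits within 100 bp were matched. Sequence is GRCm38 (mm10) and annotation GENCODE M21. Cores were sought on both strands within 50 bp. The general core is the usual CTCF consensus of 14 bases. The matrix of 20 bases was learned from 30643 optimal peaks outside chromosome 7 that have a general core of at most 2 mismatches. Identity over the longer stretch used global alignment in Biopython 1.88. With 1 group there is no contrast, so no test was made. Counts and shares are given beside those of the whole list. Values with either library left out use the strongest peaks of the other, as many as the optimal list holds. Named genes are the 3 members, protein-coding genes in the window, gene records holding or within 1 kb of a summit, and of the IGF axis list the 5 with the strongest peak and those with none. Others named were chosen after their values were seen. The matching and core search were tested on simulated data. Python 3.11.15, numpy 2.4.6, pandas 2.3.3, scipy 1.17.1 and pysam 0.24.0 were used.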

Additional observations from a re-analysis of the deposited data

How the results depend on the processing

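With the conservative list, or with either replicate left out, the window had 30 optimal peaks, the control region kept a count of 4, the outer borders 18 and the Igf2 side 7. The density ratio was 3.4 in the conservative list, 3.25 to 3.26 with a replicate left out, 3.47 and 3.15 with flanks of 100 and 200 kb, and 3.92 with the 5′ end of Ins2-201, an alternative chosen after seeing the data. That end took the Igf2 side to 4 peaks. A flank of 100 kb took the outer borders to 11 peaks, since less sequence is counted. The median log2 ratio was 0.045 once each replicate was scaled to its own median, which removes the library-wide difference. The share with a core was 18.8% at 1 mismatch (42.4% of all optimal peaks), 90.6% at 3 (91.3%), 68.8% by the matrix, 56.7% in the conservative list and 53.3% to 56.7% with a replicate left out. The share of IGF axis genes was 66.7% within 5 kb (38.3% of protein-coding genes), 95.8% within 50 kb (82.7%), 70.8% in the conservative list and 70.8% to 75% with a replicate left out. The other alternatives stayed within the spread or within 1.5 times the count. The spread of the density ratio, core share and IGF axis share was the standard deviation of the values with either replicate left out. That of the log2 ratio was 0.144, taken from the median itself, and that of the relaxed share 9.67, from its binomial interval. Staying within the latter spreads does not show stability against measured variation. No paired analysis was possible because there is 1 group. Depth is unknown and the relaxed lists stop at a fixed length, so a missing weak peak, such as that at the farthest motif copy, does not show that the site is unbound.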
